A study of Mus musculus with 6 samples.

Results

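Melanocyte lineage regulators and survival signals are the transcription factors and the ligand and receptor pairs that direct neural crest cells to become pigment cells and keep them alive. The set held 10 genes, chosen by name: the transcription factor genes Mitf, Sox10, Pax3, Snai2 and Tfap2a, the receptor genes Kit, Ednrb and Mc1r, and the ligand genes Kitl and Edn3. All 10 were found by Ensembl identifier among the 48709 mouse genes of the count table. RNA was from whole cochlea, the sensory organ for sound in the inner ear, of 3 wild-type mice (genotype Hgf+/+) and 3 littermates homozygous for an engineered allele (Hgfdel10Neo/del10Neo, called knock-in here). The allele lacks 10 bp of intron 5 of Hgf and, by its name, carries a Neo selection cassette. The strain models DFNB39, a recessive deafness linked to HGF. All mice were between 5 and 27 weeks old, and no source used here gives the age, sex or litter of a single animal. The labels do not say more about how the samples of a group relate, so p-values measure the spread between these samples.

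In the embryo, MITF turns on the pigment cell programme, and SOX10 and PAX3 act on the Mitf gene. KIT, bound by its ligand (encoded by Kitl), and the endothelin receptor EDNRB, bound by endothelin 3 (encoded by Edn3), signal for the survival and migration of pigment cell precursors. In the cochlea these precursors form the intermediate cells of the stria vascularis, which are needed for the potential of the endolymph, and loss of several of these genes is a known cause of deafness with pigment defects. Several members are not particular to pigment cells: Sox10 and Ednrb are also active in glia, Kit in mast cells, and Mitf in many cell types from other promoters. In bulk RNA, fewer cells of a type and less RNA per cell cannot be told apart.

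Library totals were between 24005234 and 42312291 gene counts. Hgf, the targeted gene, was at 15.4, 16.3 and 15.2 CPM (counts scaled to a common library total, here by TMM, the trimmed mean of M-values) in wild-type replicates 1, 2 and 3. It was at 9.24, 10.4 and 10.5 CPM in knock-in replicates 1, 2 and 3. Counts of the Neo cassette were 5, 8 and 10 in wild-type and 71, 199 and 5 in the knock-in libraries. The library labelled knock-in replicate 3 was thus at the wild-type level for Neo. For the pigment gene Dct it was at 23.6 CPM, with 19.3 and 24.4 CPM in the other knock-in libraries and 98.6 to 116 CPM in wild-type. Log2 fold changes without it are given below for Sox10, Pax3, Snai2 and Ednrb. For Mitf, Kit, Kitl and Edn3 they were -0.18, -0.03, 0.08 and -0.14 without it. Xist, which is transcribed from the inactive X, had 25380 counts in wild-type replicate 2, 17489 in knock-in replicate 3 and at most 30 in the other 4 libraries. Markers of the labelled tissue were present: all 10 of a supporting cell list and all 8 of a strial marginal cell list passed the filter on low counts.

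The Mitf gene has several promoters, and the last of its 3 RefSeq windows precedes the first exon used in melanocytes. It is shown because Mitf is the gene on which the other regulators converge. Each window runs from 250 bases before a transcription start to 50 bases after it. The Mitf window (GRCm38.p6, forward strand, chr6:97991533-97991832) holds TGACGTCA, the letters of a cAMP response element, 153 bases before the start. It also holds CTTTGAT, the letters of a TCF/LEF site, 205 bases before the start. Capitals mark these letters, given 5′ to 3′.
Mitf: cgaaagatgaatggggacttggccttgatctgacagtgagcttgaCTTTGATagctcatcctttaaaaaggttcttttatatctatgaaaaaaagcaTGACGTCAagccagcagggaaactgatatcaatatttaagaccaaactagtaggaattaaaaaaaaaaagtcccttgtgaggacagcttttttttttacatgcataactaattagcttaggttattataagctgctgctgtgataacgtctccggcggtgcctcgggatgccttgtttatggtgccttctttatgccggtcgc

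MITF binds E-boxes with the core CATGTG, known as the M-box in pigment genes. The other 3 windows are shown because they hold this core: Mc1r among the regulators, and Dct and Tyr, products of the pathway whose RNA is set beside Mitf below. They lie at chr8:123406832-123407131 (forward), chr14:118052197-118052496 (reverse) and chr7:87493463-87493762 (reverse) of GRCm38.p6. Capitals mark the core on either strand, so that CACATG is the core on the opposite strand.
Mc1r: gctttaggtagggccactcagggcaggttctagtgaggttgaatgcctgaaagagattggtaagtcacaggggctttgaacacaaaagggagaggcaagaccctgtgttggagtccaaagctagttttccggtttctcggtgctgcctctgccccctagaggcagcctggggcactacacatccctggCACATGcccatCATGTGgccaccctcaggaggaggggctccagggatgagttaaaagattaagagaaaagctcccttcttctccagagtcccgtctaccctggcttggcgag
Dct: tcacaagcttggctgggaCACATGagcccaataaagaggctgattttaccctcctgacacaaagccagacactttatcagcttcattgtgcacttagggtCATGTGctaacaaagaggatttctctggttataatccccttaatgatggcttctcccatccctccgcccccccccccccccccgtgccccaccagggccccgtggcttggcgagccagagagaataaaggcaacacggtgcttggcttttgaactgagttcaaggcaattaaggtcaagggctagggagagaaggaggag
Tyr: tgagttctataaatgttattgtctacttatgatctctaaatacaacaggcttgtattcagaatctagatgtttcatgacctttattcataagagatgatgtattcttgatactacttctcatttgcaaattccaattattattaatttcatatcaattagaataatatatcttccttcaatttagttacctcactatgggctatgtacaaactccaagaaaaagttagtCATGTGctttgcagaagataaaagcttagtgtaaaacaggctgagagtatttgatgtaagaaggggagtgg

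The core lay 62 and 51 bases before the start of Mc1r, 232 and 150 bases before that of Dct, and 21 bases before that of Tyr. RefSeq windows were matched for 7 of the 10 members, and Sox10, Pax3 and Snai2 had no entry. Of these 7 genes, 1 (Mc1r) held CATGTG and none held CACGTG, the palindromic E-box. Of 9 genes of the pigment cell product list with a window, the receptor gene Met included, 6 held CATGTG (Dct, Tyr, Tyrp1, Oca2, Slc24a5 and Trpm1). Across all 32851 windows, 14.2% held CATGTG, 7.15% CACGTG, 1.79% TGACGTCA and 3.73% CTTTGAT, on either strand. The 7 members had 11 windows and the 9 genes of the product list also had 11, and a gene was counted if any of its windows matched. The counts of genes and the shares of windows are therefore in unlike units. These matches are letters in a window, not measured binding.

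The levels of the members spanned a wide range. On the scale of CPM per kb of summed exon length, averaged over the 6 libraries, Sox10 was highest at 9.85 ± 1.26 (SD, n = 6) and Kitl followed at 8.67 ± 0.616. Ednrb (5.35 ± 1.09), Kit (4.84 ± 0.233) and Mitf (4.43 ± 0.429; SD, n = 6 for each) came next, near the median of 4.31 over 15860 tested protein-coding genes. Snai2 was at 1.80, Edn3 at 0.701 and Pax3 at 0.133 CPM per kb. Tfap2a and Mc1r were lowest, at 0.0479 and 0.0157 CPM per kb. The library ranges of Sox10 and Kitl overlapped, as did those of Ednrb and Kit, of Kit and Mitf, and of Tfap2a and Mc1r. Each other neighbour in this order was separated from the next in all 6 libraries.

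**Figure D1:**
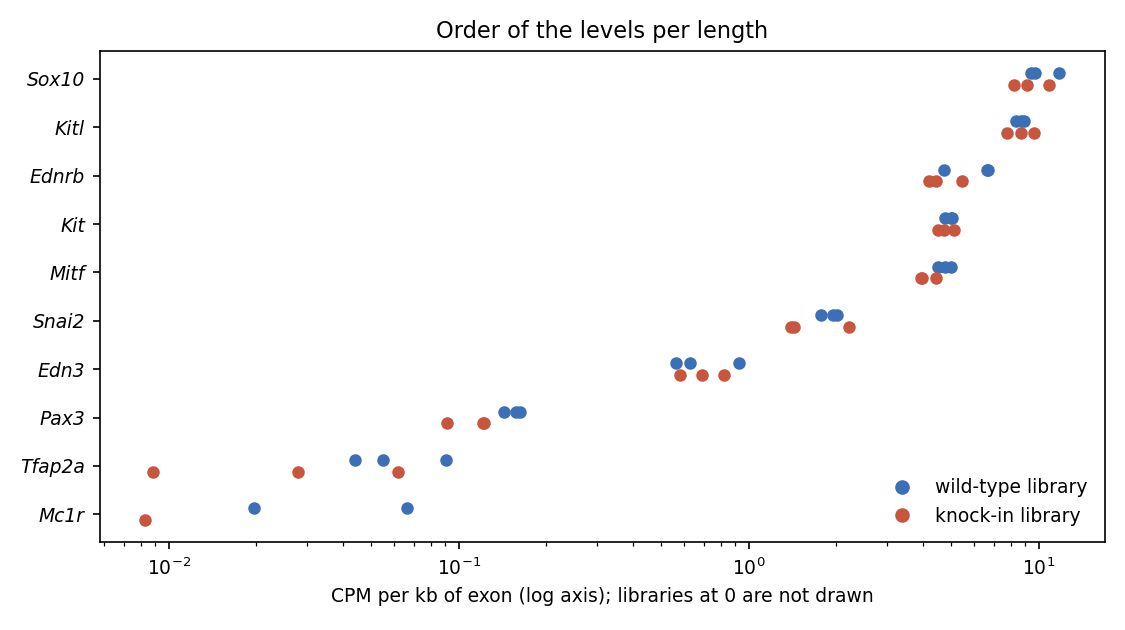
Level of each member in each library, in CPM per kb of exon on a log axis, with wild-type libraries in blue and knock-in libraries in red. Sox10 (mean 9.85) and Kitl (mean 8.67) are at the top, and Tfap2a and Mc1r lie below every library of the others; the 3 libraries without a count for Mc1r are not drawn.

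No member passed the test between knock-in and wild-type cochlea. Of the 10, 8 passed the filter on low counts, and edgeR's quasi-likelihood test with Benjamini-Hochberg adjustment over 20733 genes called 0 of them, where 0.0338% of all tested genes were called. DESeq2, limma-voom and every other alternative fit also called 0. At an unadjusted p under 0.05 there was 1 member (Ednrb), against 4.5% of all genes tested. This count was 0 in 6 of the 15 alternative fits: with upper-quartile scaling, the 1 CPM filter or the erythroid covariate, and without wild-type replicate 2 or 3 or knock-in replicate 2. Without knock-in replicate 1 the member was Mitf (unadjusted p = 0.0442), and Ednrb had 0.118. In 7 of the 8 the log2 fold change was negative, against 49.8% of all genes. The median log2 fold change was -0.16 over the 8 and 0.0 over all genes tested. In Mitf and Pax3 the highest knock-in library was below the lowest wild-type library, as in 4.01% of all genes tested. Without knock-in replicate 3, Mitf, Pax3 and Ednrb were lower without overlap, 3 members, against 8.61% of all genes. With all libraries, no member had all its knock-in libraries above the wild-type ones, as 4.71% of genes did. Markers of other tissues differed between the same groups. All 6 of a cartilage list and all 7 of an adipocyte list had positive log2 fold changes (medians 1.37 and 1.53) and an unadjusted p under 0.05, and 0 were called. The cartilage markers summed to between 100.5 and 191 CPM in wild-type and between 162 and 451 CPM in knock-in libraries, and their part in the values of the members was not tested.

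**Figure D2:**
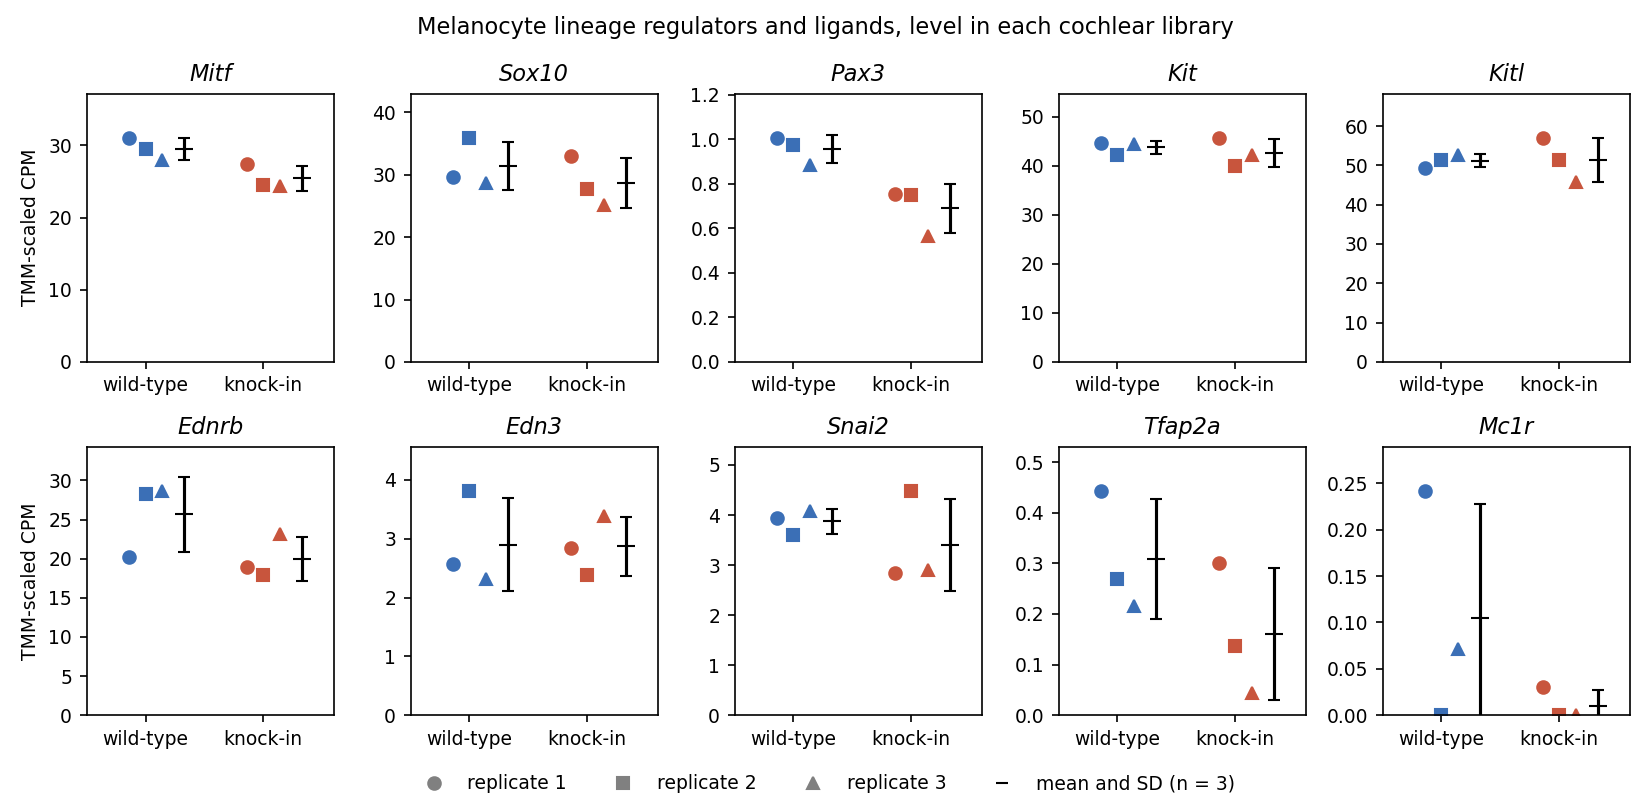
TMM-scaled CPM of each member in each library, with its own axis from 0, points for libraries and a bar for mean and SD (n = 3). Mitf and Pax3 show no overlap between groups, whereas the groups overlap in the 8 other panels.

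Mitf encodes the transcription factor at the centre of the pigment cell programme and lies on chromosome 6 from 97807052 to 98021349. It was at 31.0, 29.5 and 27.9 CPM in wild-type and 27.5, 24.5 and 24.3 CPM in knock-in libraries. The lowest wild-type library was only slightly above the highest knock-in library. Mitf had a log2 fold change of -0.21 (SE 0.103, 95% interval -0.44 to 0.02), a fold of 0.864, and it did not pass (edgeR adjusted p = 0.966). GENCODE lists 8 Mitf transcripts with 7 different starts, and counts per gene do not separate them, so the melanocyte form was not measured by itself. The related factor genes Tfeb, Tfe3 and Tfec had log2 fold changes of 0.02, 0.02 and 0.19, none past the threshold.

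Sox10 encodes the neural crest factor that acts on Mitf and Dct and is also active in Schwann cells and otic epithelium. Its values were 29.7, 35.9 and 28.8 CPM in wild-type and 33.1, 27.8 and 25.1 CPM in knock-in libraries, and the groups overlapped. The log2 fold change was -0.13 (SE 0.135, 95% interval -0.43 to 0.17), with -0.03 without wild-type replicate 2, the highest library, -0.05 without knock-in replicate 3 and -0.25 without knock-in replicate 1. Summed over a list of 12 Schwann cell markers, levels were between 1508 and 1881 CPM in wild-type and between 1404 and 1764 CPM in knock-in libraries. Of these 12, 10 had negative log2 fold changes (49.8% of all genes did), with a median of -0.19, and 0 were called. In 3 the knock-in libraries were all below the wild-type ones (4.01% of all genes), and 4 had an unadjusted p under 0.05 (4.5% of all genes); their part in the values of Sox10 was not tested.

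Pax3 encodes a paired-box factor of the neural crest that acts with SOX10 on Mitf. It had few reads, 25, 29 and 37 counts in wild-type and 25, 22 and 13 counts in knock-in libraries. Scaled, these were 1.005, 0.976 and 0.884 CPM in wild-type and 0.755, 0.751 and 0.563 CPM in knock-in, without overlap. The log2 fold change was -0.45 (SE 0.252), and its 95% interval, -1.01 to 0.12, was the widest of the tested members (edgeR adjusted p = 0.966). Without knock-in replicate 3 the log2 fold change was -0.34.

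Snai2 encodes the zinc finger repressor Slug of migrating neural crest cells. It was at 3.94, 3.60 and 4.08 CPM in wild-type and 2.84, 4.47 and 2.90 CPM in knock-in libraries. Knock-in replicate 2 was above every wild-type library, and the other knock-in libraries were below them. Its log2 fold change was -0.19 (95% interval -0.66 to 0.29). It was -0.43 without knock-in replicate 2, -0.06 without knock-in replicate 1 and -0.09 without knock-in replicate 3.

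Tfap2a, which encodes the factor AP-2 alpha of neural crest and skin, did not pass the filter. Its counts were 11, 8 and 9 in wild-type and 10, 4 and 1 in knock-in libraries, 28 against 15 in all. Relative to library totals the wild-type level was 1.70 times the knock-in level, with an exact 95% counting interval of 0.877 to 3.42 that includes no difference. The interval pools the reads of each group, covers counting error only and leaves out the spread between mice. Annotated antisense genes share exon bases with Tfap2a, and no source used here gives the strand setting of the counts, so these reads are not certain to be its own.

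Kit encodes the receptor tyrosine kinase of pigment cell precursors. Its levels were 44.7, 42.2 and 44.4 CPM in wild-type and 45.6, 40.0 and 42.2 CPM in knock-in libraries. The highest and the lowest library were both knock-in. For Kit the log2 fold change was -0.04 (SE 0.0948), and the 95% interval of the fold was 0.84 to 1.13. Mast cells also carry KIT, and the sum of 10 mast cell markers was 102.6 to 121.2 CPM in wild-type and 104.5 to 120.7 CPM in knock-in libraries. The largest part was Hdc, at 76.7, 56.2 and 54.0 CPM in wild-type and 65.1, 68.05 and 53.7 CPM in knock-in libraries. Summed over 8 marrow progenitor markers, levels were 624 to 972 CPM in wild-type and 722 to 780 CPM in knock-in libraries. The part of either list in the values of Kit was not tested.

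Kitl encodes the KIT ligand, stem cell factor. It was at 49.4, 51.4 and 52.6 CPM in wild-type and 56.9, 51.4 and 45.9 CPM in knock-in libraries, with knock-in replicate 1 above, replicate 2 within and replicate 3 below the wild-type range. The log2 fold change was 0.01 (SE 0.104; 95% interval of the fold 0.855 to 1.18). Within a library the ratio of Kitl to Kit was 1.11, 1.22 and 1.19 in wild-type and 1.25, 1.29 and 1.09 in knock-in (exact two-sided permutation p = 0.6).

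Ednrb encodes the endothelin receptor of melanoblasts, glia and endothelium. It was at 20.2, 28.2 and 28.6 CPM in wild-type and 18.9, 17.9 and 23.1 CPM in knock-in libraries. Wild-type replicate 1 lay below knock-in replicate 3, and the groups overlapped there. The log2 fold change was -0.36 (SE 0.158, 95% interval -0.72 to -0.01). The unadjusted p was 0.045 and the edgeR adjusted p 0.966. In the library pair with abundant Xist, wild-type replicate 2 was at 28.2 CPM and knock-in replicate 3 at 23.1 CPM. Among the other libraries both knock-in values (18.9 and 17.9) were below both wild-type values (20.2 and 28.6). With Xist as a covariate the log2 fold change was -0.37 (edgeR unadjusted p = 0.0193, adjusted p = 0.751). Without the filter on low counts it was -0.38 (edgeR unadjusted p = 0.0155, adjusted p = 0.794). It was -0.51 without wild-type replicate 1 (edgeR unadjusted p = 0.00569, adjusted p = 0.9993). It was -0.28 without wild-type replicate 3 (edgeR unadjusted p = 0.155, adjusted p = 0.9998). Without knock-in replicate 3, the knock-in library that overlapped the wild-type range, it was -0.48 (unadjusted p = 0.017, edgeR adjusted p = 0.9987). In the authors' deposited table the log2 fold change of Ednrb was -0.37, with an adjusted p of 0.9997. Endothelial markers, summed over 8 genes, were between 463 and 578 CPM in wild-type and 466 and 603 CPM in knock-in libraries; their part, like that of the Schwann cell list, was not tested.

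Edn3 encodes endothelin 3, the ligand of EDNRB. It was at 2.57, 3.802 and 2.32 CPM in wild-type and 2.84, 2.39 and 3.38 CPM in knock-in libraries. Both groups covered nearly the same range, and the log2 fold change was -0.01 (SE 0.239, 95% interval -0.55 to 0.52). The ratio of Edn3 to Ednrb was 0.128, 0.135 and 0.0810 in wild-type and 0.150, 0.133 and 0.146 in knock-in libraries. Wild-type replicate 2 was slightly above knock-in replicate 2, so that these ratios overlapped. On the scale of log2(CPM + 0.1) their order turned and the groups separated, with a difference of 0.35 (exact two-sided permutation p = 0.1, the smallest p that 3 against 3 allows; adjusted p = 0.22). The difference was 0.13 without wild-type replicate 3.

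Mc1r encodes the melanocortin receptor that sets the type of melanin. It was barely detected, with 6, 0 and 3 counts in wild-type and 1, 0 and 0 counts in knock-in libraries, and did not pass the filter. The ratio of the 9 to 1 counts, relative to library totals, was 8.19, with an exact 95% counting interval from 1.14 to 359. The interval covers counting error only, 6 of the 9 wild-type counts came from 1 library, and an opposite-strand gene model overlaps Mc1r, so no difference between groups is read from it.

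Some products of the pathway, but not all, had larger differences than these regulators. Dct, which encodes the melanin enzyme dopachrome tautomerase, was at 98.6, 105 and 116 CPM in wild-type and 19.3, 24.4 and 23.6 CPM in knock-in libraries. Of 14 listed pigment cell product genes, 12 were tested, all 12 had negative values, their median log2 fold change was -0.94, and 4 fell (Dct, Tyr, Mlana and Slc45a2 in edgeR's quasi-likelihood test), where 0.0241% of all genes tested fell. The other 8 were between -1.89 (Trpm1) and -0.03 (Rab38), and Rab38, Pmel (-0.09), Rab27a (-0.22) and Slc24a5 (-0.23) were nearer to 0 than Ednrb and Pax3. Among these 8 was Met (-0.43), the gene of the HGF receptor, which is not itself a pigment product. Without wild-type replicate 3, or without knock-in replicate 3, 2 were called, Dct and Slc45a2. This list was drawn up with that result known and is no independent evidence of its direction. A list of 11 melanocyte and intermediate cell markers shares Dct, Tyr, Met and other genes with it, and the same limit holds. All 11 had negative values (49.8% of all genes did), with a median of -1.13, and 4 were called. In 8 the knock-in libraries were all below the wild-type ones (4.01% of all genes). The part of these cells in the values of the members was not tested. The 95% interval of the fold was 0.174 to 0.254 for Dct and 0.736 to 1.01 for Mitf.

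**Figure D3:**
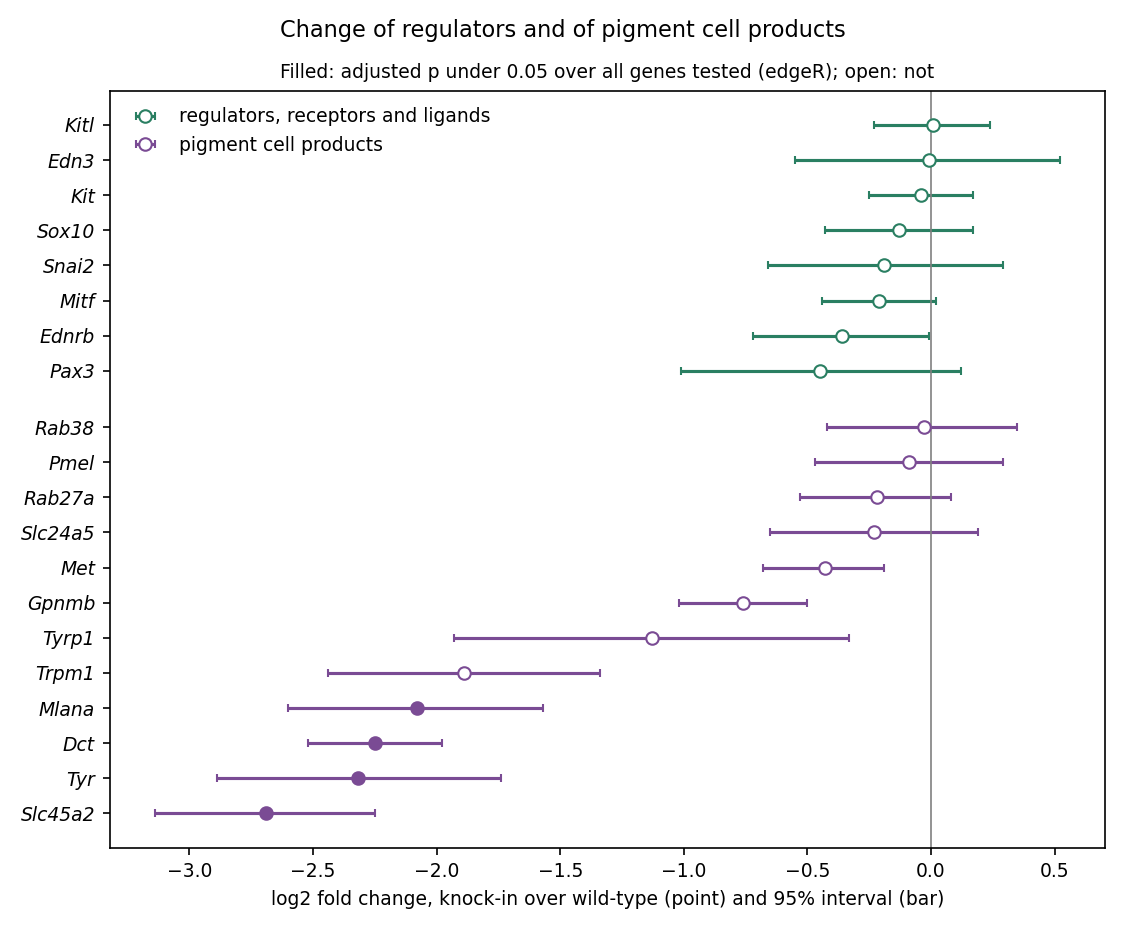
Log2 fold change of knock-in over wild-type with its 95% interval for the 8 tested members and 12 genes of the pigment cell product list, the receptor gene Met included. Filled points passed the edgeR test over all genes. Kit lies at -0.04 and Mitf at -0.21, whereas Dct lies at -2.25 and Slc45a2 at -2.69. The products Pmel (-0.09) and Rab38 (-0.03) lie within the range of the members.

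The difference between product and regulator was also given as a ratio within each library. Dct and Tyr were chosen with earlier results of these data known, so their ratios are no independent evidence of a difference. Counts of Mitf combine all its transcripts, so these are not ratios to the melanocyte form. Ratios per library are quotients of CPM, and fold differences between groups are taken from means of log2(CPM + 0.1) differences. The ratio of Dct to Mitf was 3.18, 3.55 and 4.15 in wild-type and 0.702, 0.993 and 0.972 in knock-in libraries. Its mean differed 4.09-fold between the groups, and the groups did not overlap (exact two-sided permutation p = 0.1, the smallest that 3 against 3 allows; adjusted p = 0.22 over 11 ratios). Tyr, which encodes tyrosinase, had a ratio to Mitf of 0.210, 0.325 and 0.306 in wild-type and 0.04505, 0.0946 and 0.0570 in knock-in libraries (exact permutation p = 0.1). Among the regulators, the ratio of Kit to Mitf was 1.44, 1.43 and 1.59 in wild-type and 1.66, 1.63 and 1.73 in knock-in libraries, a difference of 1.13-fold that was also without overlap (exact permutation p = 0.1). Pax3 to Mitf was 0.0324, 0.0331 and 0.0316 in wild-type and 0.0275, 0.0306 and 0.0232 in knock-in libraries, a difference of 1.16-fold (exact permutation p = 0.1). Pax3 was near or below 1 CPM, and with 0.5 CPM in place of 0.1 CPM added before the logarithm the log2 difference went from -0.21 to -0.08 (exact permutation p = 0.4); it was -0.12 without knock-in replicate 3. The ratios of Sox10, Ednrb, Snai2, Tfap2a and Mc1r to Mitf overlapped between groups (exact permutation p = 0.3 to 1.0).

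**Figure D4:**
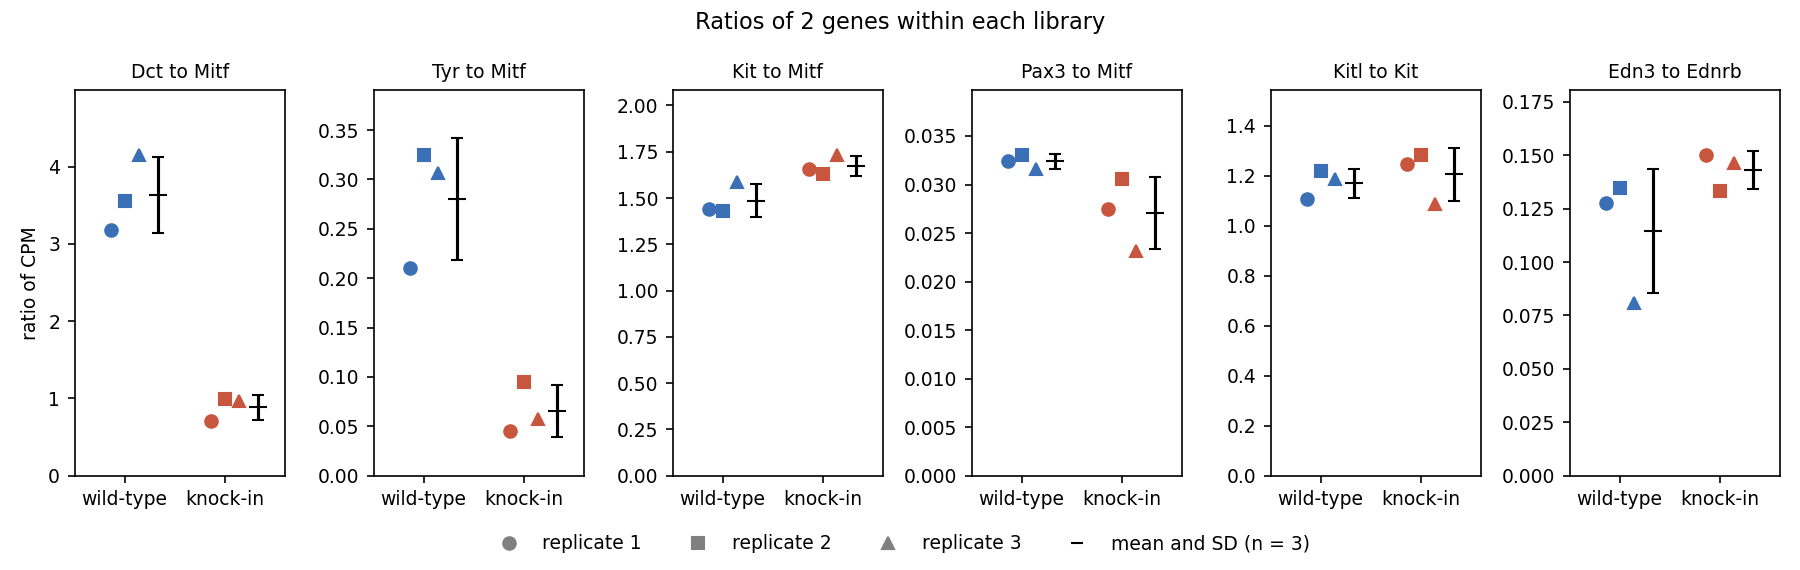
Ratio of the CPM of 2 genes within each library, each panel with its own axis from 0, points for libraries and a bar for mean and SD (n = 3). Dct to Mitf lies between 3.18 and 4.15 in wild-type and between 0.702 and 0.993 in knock-in libraries, whereas Kit to Mitf differs by 1.13-fold between the group means.

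The edgeR test called no other gene of the KIT, endothelin, melanocortin, neural crest and ligand lists, Hgf included, although DESeq2 called Hgf and a fit without the filter on low counts called Hgf and Mrap. Among 20 genes of KIT signalling, which relays the receptor to RAS, PI3K and STAT5, 0 were called in either direction in edgeR or DESeq2 and 0 had an unadjusted p under 0.05, with log2 fold changes between -0.23 and 0.06. The 3 with the smallest p were Ptpn11, a phosphatase gene that acts below KIT (-0.17), the adaptor gene Gab2 (-0.14) and Stat5b (-0.12). Of 10 endothelin genes, 9 were tested and 0 called, and 1 (Ednrb) had an unadjusted p under 0.05. Ednra, the other endothelin receptor, was at 18.2, 16.9 and 16.6 CPM in wild-type and 12.7, 14.03 and 22.02 CPM in knock-in libraries. The peptidase genes Ece2 and Mme, which form and degrade endothelins, had log2 fold changes of -0.14 and 0.12.

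In the melanocortin list, 13 of 15 genes were tested and 0 called, and 1 (Mrap) had an unadjusted p under 0.05. Asip, the antagonist of MC1R and listed under the symbol a in the annotation, had between 1 and 6 counts in each library and was not tested. Pomc, the precursor gene of the melanocortin peptides, was at 3.38, 12.9 and 8.84 CPM in wild-type and 2.05, 3.21 and 10.5 CPM in knock-in libraries, with wide overlap. Mrap, an accessory protein gene of melanocortin receptors, was at 3.10, 3.16 and 4.37 CPM in wild-type and 6.31, 5.56 and 14.95 CPM in knock-in libraries, without overlap (log2 fold change 1.31, edgeR adjusted p = 0.966). Mrap is also a gene of fat cells. Summed over 7 adipocyte markers, levels were between 101.5 and 196 CPM in wild-type and between 175 and 809 CPM in knock-in libraries, and their part in the values of Mrap was not tested. Its relative Mrap2 had a log2 fold change of -0.49.

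Of 24 neural crest factors, the 4 members included, 20 were tested, 0 were called in edgeR or DESeq2 and 0 had an unadjusted p under 0.05, with a median log2 fold change of -0.06. Ngfr, the neurotrophin receptor gene p75 of crest cells and glia, had the smallest p, with 15.2, 31.2 and 22.5 CPM in wild-type and 22.7, 9.69 and 11.7 CPM in knock-in libraries, which overlapped. Snai1 and Sox9 had log2 fold changes of -0.56 and 0.19. For Snai1 wild-type replicate 1 was highest, at 6.83 CPM against 3.67 and 2.72 CPM in the other wild-type libraries. Among 13 genes of ligands and antagonists that act on melanocytes or their precursors, 10 were tested and 0 called. The lowest p among them belonged to Hgf itself (log2 fold change -0.63, edgeR adjusted p = 0.246). The log2 fold change of Bmp4 was 0.27.

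The genes whose levels followed the members most closely over the 6 libraries were found among 12111 named protein-coding genes with a mean of at least 5 CPM, as a description without a test. For Mitf these were Dusp10, Flot2 and Ankrd9 (Pearson correlation of log2 CPM of 0.998, 0.991 and 0.989 over 6 libraries). For Sox10 they were Lmod3, Myom1 and Myh14 (0.997, 0.992 and 0.991), the first pair known from skeletal muscle. Kit was followed by Sugp1, Ampd3 and Riox1 (0.982, 0.978 and 0.977), and Ednrb by Fgf10, Prkci and Ifit2 (0.986, 0.985 and 0.985). The libraries differed in depth and in their sums of tissue markers, and the part of either in these values was not tested. Among so many genes high values occur with 6 points.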

How the data were processed

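Total RNA of 6 cochleae was depleted of ribosomal RNA and sequenced from both ends over 93 bases, as the labels' protocols state. STAR 2.5.2 mapped the reads to the build GRCm38 with the annotation of GENCODE release M11, per the series' design text and the submitters' processing notes; the sources used here name neither the counting program nor a strand setting. The authors deposited unnormalized whole-number counts per gene. The DESeq2 table that the authors deposited holds a mean signal per gene (size-factor-scaled counts), the log2 fold change and its standard error, a Wald test score, and p-values.

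The 24 rows that are not mouse genes, 0.00151% to 0.0045% of a library's counts, were left out of totals and tests. Symbols, exon lengths and coordinates came from GENCODE release M21 (48349 of 48709 identifiers matched), and promoter windows from RefSeq (GRCm38.p6). The test was run in edgeR 4.0.16 (R 4.3.3) over the 20733 genes kept by filterByExpr, with TMM normalization, a two-sided quasi-likelihood F test with group as the only term, and a threshold of 0.05 on Benjamini-Hochberg adjusted p. A standard error is the log2 fold change over the square root of its F statistic, and 95% intervals use the 9.53 degrees of freedom of the test, of which 4 are residual. Ratios per library are printed and drawn as quotients of CPM with nothing added. Their fold differences and p come from log2(CPM + 0.1) differences under an exact permutation test (scipy 1.17.1).

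The members and lists were chosen with earlier results of these data known, and named genes followed a rule: all members, Hgf, Dct and Tyr, up to 3 other genes per pathway list with the smallest p, and the 3 genes most like each of Mitf, Sox10, Kit and Ednrb. Genes named outside it (Asip, Hdc, Met, 4 products nearer to 0 and the genes of a motif count) were chosen after their values were seen. A gene of the ligand list that the rule names is not reported here. On counts simulated for this comparison (20494 genes tested), the test called 28 of 50 genes simulated at a fold of 0.5, and 49 of 50 at 0.25, and 15 of 20533 genes simulated without a change. The changed genes were drawn only from genes above a floor on the mean count. No change smaller than a fold of 0.5 or 2 was simulated. Recovery at the smaller changes estimated for the members is thus not known. Alternatives were RLE and upper-quartile scaling, no filter, a stricter filter (1 CPM in 3 libraries), DESeq2 1.42.0, limma-voom (limma 3.58.1), bias-adjusted quasi-likelihood, covariates for Xist and erythroid genes, and leaving out each library. Pairs of libraries differed by a chi-square per degree of freedom of 21 to 49, so none was a repeat. Replicate numbers were given in accession order.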

Additional observations from a re-analysis of the deposited data

How the results depend on the processing

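No member was called in any of the 15 alternative fits, DESeq2, limma-voom and each left-out library included. Mitf, Sox10, Ednrb and Snai2 kept a negative log2 fold change in all 15, and Pax3 in the 14 that tested it, with ranges of -0.27 to -0.18 for Mitf, -0.25 to -0.03 for Sox10, -0.51 to -0.28 for Ednrb, -0.43 to -0.06 for Snai2 and -0.51 to -0.34 for Pax3. Values near 0 changed sign. Kitl was at 0.0 without a filter and in DESeq2, at -0.01 with the erythroid covariate, and between -0.07 and 0.08 when a library was left out. Edn3 was at 0.0 with the Xist covariate, 0.01 in limma-voom and -0.17 to 0.23 with a library left out, and Kit at -0.09 to 0.0. With a library left out, the log2 difference of the ratio of Kitl to Kit was -0.01 to 0.12 and that of Snai2 to Mitf -0.23 to 0.17.

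Of all genes, 7 were called, against 76 without a filter, 28 in DESeq2, 11 with the Xist or the erythroid covariate, and 3 to 21 with a library left out (21 when knock-in replicate 1 was dropped, 4 when wild-type replicate 1 was, and 3 for wild-type replicate 2 or knock-in replicate 3). Among genes of the pathway lists 4 were called, against 8 without a filter, 7 in DESeq2 and 2 to 4 with a library left out (2 without wild-type or knock-in replicate 3). Members lower without overlap were 2, and 3 without knock-in replicate 3, a count chosen after seeing the data. The cause of these differences was not tested. No paired analysis was possible because the labels give the groups no shared replicate numbers. Low counts limit Pax3, Tfap2a and Mc1r, and 3 mice per group limit every ratio to a p of 0.1 or more.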
